A study of Mus musculus with 384 samples.

Results

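The genes described here are the Wnt receptors of the Frizzled family, Fzd1 to Fzd8, together with their co-receptors Lrp5 and Lrp6. They were chosen by symbol, 10 genes of 23422 in the table of counts, and all 10 were also listed among the 22276 genes in the table of cells that the authors kept. Each gene was described by mouse line and by the level of Acta2, the smooth muscle actin gene, in the cell that carried it. The study profiled mouse lung mesenchyme, the connective and muscle tissue around airways and alveoli, by full-length single-cell RNA sequencing of cells sorted into wells. There were 384 wells, of which 380 held single cells (95 from each of 4 mice) and 4 held pools.

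Cells came from 2 lines with 2 mice each, and the mouse was the replicate. In the Lgr5 line, an Lgr5-IRES-CreERT2 knock-in was combined with the Rosa26 tdTomato reporter, so that tamoxifen made cells that transcribed Lgr5, and their progeny, red. Those cells were sorted as Tomato-positive and negative for CD31, CD45, CD11b and TER119, which mark endothelial, immune, myeloid and red blood cells. In the Lgr6 line, an Lgr6-EGFP-IRES-CreERT2 knock-in made cells with Lgr6 transcription green, and they were sorted as GFP-positive with the same negative markers. Both inserts were driven by the Lgr5 or Lgr6 locus itself. The line, its reporter and its sort gate cannot be told apart. Mice were 7-10 weeks old in most experiments of the study, and C57BL/6 is the strain given for mice of its lineage tracing and injury experiments, with no strain named for the mice sorted here.

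Frizzled proteins are membrane receptors whose outer cysteine-rich domain binds secreted Wnt proteins. When a Wnt joins a Frizzled to Lrp5 or Lrp6, β-catenin is stabilised and enters the nucleus, whereas Frizzleds without Lrp partners also act in cell polarity and movement. In the lung, Wnt signals pass between epithelium and mesenchyme during branching, in airway smooth muscle and in the alveolar stem cell niche.

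The authors kept 29 and 28 cells from Lgr5 mouse 1 and mouse 2 and 50 and 75 cells from Lgr6 mouse 1 and mouse 2. Their summed counts were 9874249, 13198680, 28875278 and 124650544, in the same order. The median count per cell was 263129 in Lgr5 mouse 1, 272729 in Lgr5 mouse 2, 332588 in Lgr6 mouse 1 and 1537590.0 in Lgr6 mouse 2, and single cells ranged from 9748 to 4538878. Lgr6 mouse 2 was therefore the most deeply sequenced, and shares of cells with a count are given below also after thinning every cell to 99000 counts. The counts are amplified reads without molecular identifiers, so every interval and every limit below covers counting error only.

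Levels per cell are in TPM, a scale which adjusts for transcript length and so allows genes to be set side by side. The deposited values are on a log2 scale, and in these files they matched log2(TPM) with every TPM under 1 listed as 0, not log2(TPM + 1). Of 690425 positive counts in kept cells, 55870 were listed at 0 on that scale. A mean TPM below is the mean over all kept cells of a mouse, with unlisted values taken as 0. Shares of cells are shares with a count above 0, with exact Clopper-Pearson 95% intervals.

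Some kept cells stood apart from the rest. In 11 of the kept cells, found after the data were examined, the summed TPM of 8 epithelial markers lay between 94918 and 605032, against at most 44225 and a median of 8.91 in the other kept cells. These epithelial-rich cells numbered 1, 2, 3 and 5 in the 4 mice, all 11 were Acta2-lower, and 8 of them had no counts for the 4 general mesenchyme markers, whereas all the others had some. Sftpc, a surfactant gene of alveolar type 2 cells, was the most abundant of the epithelial list in all 4 mice. Summed over all kept cells, that list reached 48098, 28398, 1261 and 10721 CPM (a mouse's summed counts scaled by its total), and without the 11 cells 679, 156.5, 17.2 and 18.9 CPM.

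The labels were set against marker genes. All 4 mesenchyme markers had counts in every mouse and summed to 2877, 4039, 6613 and 4627 CPM, with Col3a1 at the top. Lgr5 itself had a mean TPM of 304 and 171.1 in the Lgr5 line, against 5.51 and 43.1 in the Lgr6 line. Lgr6 had a mean TPM of 19.2 and 23.3 in the Lgr5 line, against 26.5 and 34.8 in the Lgr6 line, a small gap for the transcript that names the line. The tdTomato transcript, named in the study's methods as the reporter of the Lgr5 line, was found in all kept cells of both lines, with lowest values of 47.9, 54.8, 32.8 and 154.9 TPM and medians of 2589, 2179, 2487 and 2477 TPM in the 4 mice. The authors had removed wells with little tdTomato, so its presence in every kept cell was set by that filter and checks no label. The lowest values were bounded by the same filter. Why the Lgr6 line carried tdTomato was not tested. Of 8 endothelial markers 3, 6, 5 and 3 had counts, summing to 19.7, 102.4, 75.98 and 18.1 CPM. Pecam1 was at 0 in every mouse, but the authors had removed wells by this gene, so its absence was set by that filter. Of 6 immune markers 3, 3, 2 and 4 had counts, summing to at most 26.3 CPM. Erythroid markers summed to 734 and 893 CPM in the Lgr5 mice, led by Hbb-b2, and to 0.242 and 2.16 CPM in the Lgr6 mice, with Hbb-b1 at 0 in all 4.

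In the Lgr5 line, Lrp6 had the highest mean TPM of the 10 genes, 9.04 ± 4.89 (SD, n = 2 mice). It was followed by Fzd1 with 5.97 ± 1.31, Lrp5 with 5.62 ± 1.66 and Fzd3 with 5.34 ± 0.182. No neighbours among these 4 were separated by the spread between mice. The next 5, Fzd2, Fzd5, Fzd6, Fzd7 and Fzd8, had line means between 0.102 and 0.643, and Fzd4 was at 0 in both mice. Among neighbours in this order, Fzd3 over Fzd2 was the step at which both mice lay above both mice of the next gene. That step rested on 1 cell of mouse 2, which held 88.8% of its Fzd3 counts. Without that cell the mean TPM of Fzd3 in mouse 2 was 0.795, under the 1.21 of Fzd2 in mouse 1.

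In the Lgr6 line, Fzd1 led with a mean TPM of 28.4 ± 4.41 (SD, n = 2 mice), and both mice lay above both mice of the next gene, Lrp5, with 9.27 ± 5.17. Lrp6 followed with 8.52 ± 1.95, Fzd8 with 6.77 ± 3.09, Fzd7 with 6.36 ± 2.23 and Fzd2 with 5.98 ± 4.06. Fzd3, Fzd5, Fzd4 and Fzd6 came last, with 2.57 ± 1.44, 2.15 ± 1.38, 1.53 ± 2.17 and 1.31 ± 0.0951. Below Fzd1 the spread between mice separated no neighbours in the order. Without the epithelial-rich cells Fzd7 over Fzd3 was also separated, a step that rested on 1 cell of mouse 2 with 36.8% of its Fzd7 counts.

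**Figure D1:**
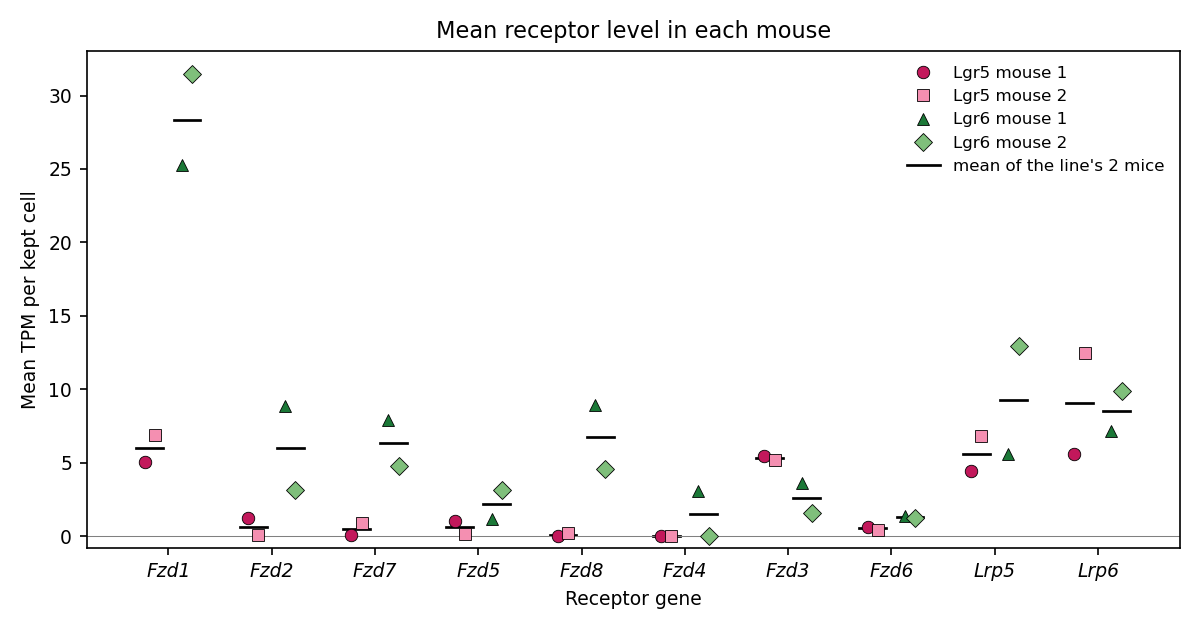
Mean TPM per kept cell (vertical axis) of the 10 receptor genes, with a point for each of the 4 mice and a bar for the mean of each line. Fzd1 in the Lgr6 mice, at 25.2 and 31.5 TPM, lies above every other point.

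Fzd1, Fzd2 and Fzd7 form the subfamily most often tied to β-catenin signalling, and each is encoded in 1 exon. In the GRCm38 annotation (GENCODE vM21) Fzd1 lies at chr5:4753839-4758035 on the minus strand, Fzd2 at chr11:102604396-102608058 on the plus strand and Fzd7 at chr1:59482424-59486955 on the plus strand. Their coding parts hold stretches of identical sequence, shown here because counting by 31-base words, as the authors' tool does, cannot place such words in 1 gene. Each stretch is the longest shared by its pair and lies in the coding exon. Fzd1 and Fzd2 share 47 bases (chr5:4756331-4756377, minus strand, and chr11:102605740-102605786, plus strand), Fzd1 and Fzd7 share 47 bases (chr5:4756964-4757010, minus strand, and chr1:59483344-59483390, plus strand), and Fzd2 and Fzd7 share 38 bases (chr11:102606064-102606101 and chr1:59484298-59484335, both on the plus strand).
Fzd1 and Fzd2: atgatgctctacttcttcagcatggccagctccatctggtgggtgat
Fzd1 and Fzd7: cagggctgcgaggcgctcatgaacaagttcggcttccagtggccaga
Fzd2 and Fzd7: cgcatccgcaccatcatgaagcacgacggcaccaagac
In all, 67 of 4167 words of Fzd1 (1.61%), 69 of 3633 words of Fzd2 (1.9%) and 35 of 4502 words of Fzd7 (0.777%) were shared with another gene. How the tool divided counts over the shared words was not tested.

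Fzd1 had a mean TPM of 5.04 and 6.90 in the Lgr5 line, against 25.2 and 31.5 in the Lgr6 line. Both Lgr6 mice lay above both Lgr5 mice. Few cells had counts for Fzd1, 2 of 29, 4 of 28, 10 of 50 and 12 of 75. Over those 28 cells the median was 101.5 amplified counts and 61.8 TPM. The highest cell reached 546 TPM, and the top 2 cells held 39.5% of all Fzd1 counts.

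Fzd2, which has roles in lung branching, had a mean TPM of 1.21 and 0.0771 in the Lgr5 line, against 8.85 and 3.11 in the Lgr6 line. Fzd7, known from stem cells of several epithelia, had 0.0614 and 0.894 in the Lgr5 line, against 7.93 and 4.78 in the Lgr6 line. For both genes the lower Lgr6 mouse lay above the higher Lgr5 mouse. Fzd2 had counts in 20 kept cells (10.99% of all, interval 6.84 to 16.5%) and Fzd7 in 36 (19.8%, 14.3 to 26.3%). Together the 3 genes reached 67 cells (36.8%), and their summed mean TPM was 6.32 and 7.87 in the Lgr5 mice against 42.03 and 39.4 in the Lgr6 mice.

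The members varied in their shares of the epithelial-rich cells. Fzd7 had counts in 7 of those 11 (63.6%, 30.8 to 89.1%) and in 29 of the other cells (16.96%, 11.7 to 23.4%), and after thinning in 5 of 10 against 11.1%. Lrp6 had counts in 6 of the 11 (54.5%) against 30.4%, and after thinning in 6 of 10 against 26.8%. Fzd8 was in 2 of the 11 against 2.34%, and after thinning in 2 of 10 against 1.96%. Fzd1 had counts in 1 of the 11 and Fzd2 in 1. With so few cells these shares are a description, and no test was made over cells.

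Fzd5 and Fzd8 form another subfamily. Fzd5, needed for placental vessels and for Paneth cells of the gut, had a mean TPM of 1.04 and 0.139 in the Lgr5 line, against 1.18 and 3.13 in the Lgr6 line. The higher Lgr5 mouse and the lower Lgr6 mouse nearly met. Fzd5 lies at chr1:64730558-64737751 on the minus strand, and 1189 of its 6913 words (17.2%) occur in other genes, 1175 of them in Gm38058 on the opposite strand, which had no entry in the files. Of its counts, 72.5% came from 2 cells.

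Fzd8 had counts in 6 kept cells (3.30%, 1.22 to 7.04%). These were 0, 1, 2 and 3 cells in the 4 mice. The mean TPM was 0 and 0.203 in the Lgr5 line, against 8.96 and 4.59 in the Lgr6 line. In Lgr6 mouse 1 a single cell held 95.5% of the Fzd8 counts, and without it the mean TPM was 0.467. In Lgr6 mouse 2 the cell with the most counts held 60.5%, and without it the mean TPM was 3.45, as another cell had 236 TPM from 20 counts. No word of Fzd8 was shared with another gene.

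Fzd4, the receptor for Norrin in retinal and other vessels, was counted in 1 kept cell (0.549%, 0.0139 to 3.02%). That Acta2-lower cell of Lgr6 mouse 1 had 11 counts and 153.4 TPM, and it also held Pdgfra, a fibroblast marker. In the other mice Fzd4 was at 0 of 29, 0 of 28 and 0 of 75 cells, which allows shares of up to 10.3%, 10.7% and 4.0% if 3 cells are taken as the limit, with exact upper limits of 11.9%, 12.3% and 4.80%. Fzd9 and Fzd10, the other Frizzled genes, had counts in 0 and 2 cells.

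Fzd3 and Fzd6 are the Frizzleds best known for planar polarity, in axon guidance and hair orientation. Fzd3 was the most widely counted member, in 59.3% of kept cells (51.8 to 66.5%), 20, 16, 24 and 48 in the 4 mice. Most of those cells held little of it, with a median of 2 counts and with 3 counts or fewer in 69 of them. In 68 of them the value was under 1 TPM and listed at 0. Fzd3 has the longest transcript of the Frizzled genes, 12734 bases, which lowers the TPM of a given count. It lies at chr14:65192449-65262463 on the minus strand with 7 exons, and 51 of its 12756 words also occur in 2789 other genes. The part of those words in the low counts was not tested.

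The mean TPM of Fzd3 was 5.47 and 5.21 in the Lgr5 line, against 3.59 and 1.56 in the Lgr6 line. Both Lgr5 mice lay above both Lgr6 mice, the reverse of the order for Fzd1. Without the top cell of each mouse the values for Fzd3 were 3.67, 0.795, 2.23 and 1.33, which overlap. Fzd6 had 0.609 and 0.438 in the Lgr5 line, against 1.37 and 1.24 in the Lgr6 line. It had counts in 45 cells (24.7%, 18.6 to 31.7%), with 3 counts or fewer in 32 of them. The epithelial-rich cells held 51.01% of all Fzd6 counts, with the gene in 6 of 11 (54.5%, 23.4 to 83.3%) against 39 of the others (22.8%, 16.7 to 29.8%). In Lgr6 mouse 2 a single epithelial-rich cell held 58.8% of the Fzd6 counts of that mouse. After thinning Fzd6 was in 1 of 10 of them against 8.50% of the others.

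Lrp5 and Lrp6 are the co-receptors that Wnt ligands bring to Frizzled for β-catenin signalling. Lrp6, required throughout the embryo, had a mean TPM of 5.58 and 12.5 in the Lgr5 line, against 7.14 and 9.90 in the Lgr6 line. Lrp5, known for bone mass and eye vessels, had 4.45 and 6.80 in the Lgr5 line, against 5.62 and 12.9 in the Lgr6 line. For both genes the lines overlapped. Lrp6 had counts in 58 kept cells (31.9%, 25.2 to 39.2%) and Lrp5 in 27 (14.8%, 10.0 to 20.8%). Lrp6 counts were the least concentrated of the members, with 26.5% in the top 2 cells.

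The share of cells with Lrp6 was close to constant, 10 of 29 and 9 of 28 cells in the Lgr5 line and 15 of 50 and 24 of 75 in the Lgr6 line. Thinned to 99000 counts, which left out 1, 3, 13 and 2 cells, it was 32.1%, 36%, 32.4% and 23.3%. In percentage points Fzd3 moved most with depth. Its share was 68.97%, 57.1%, 48% and 64% with all counts and 42.9%, 32%, 16.2% and 19.2% after thinning. At equal depth both Lgr5 mice lay above both Lgr6 mice for Fzd3, with intervals of 24.5 to 62.8%, 14.9 to 53.5%, 6.19 to 32.01% and 10.9 to 30.1%, which overlap. With all counts the deepest mouse, Lgr6 mouse 2, lay between the Lgr5 mice.

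For Fzd1 the thinned shares were 7.14%, 16%, 18.9% and 16.4%, and for Fzd7 3.57%, 12%, 21.6% and 13.7%. The Lgr6 mice lay above the Lgr5 mice for both, and by little for the pair of mouse 2. With all counts the Fzd7 shares were 6.90%, 21.43%, 24% and 21.33%, with no order between lines. Lrp5 gave 21.4%, 12%, 8.11% and 15.1%, with no order between lines. Fzd4 was at 0 in all 4 mice after thinning.

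**Figure D2:**
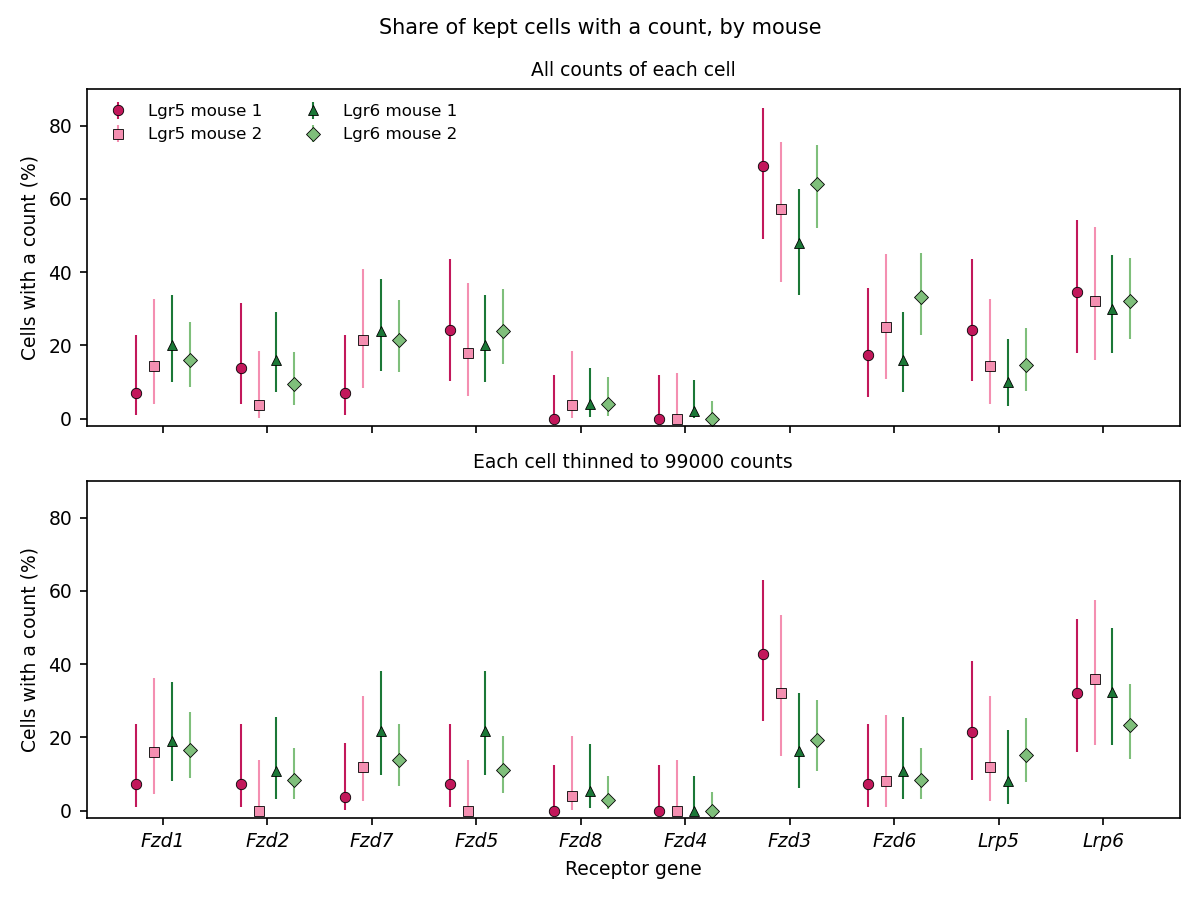
Share of kept cells with a count for each receptor gene (vertical axis, percent) in the 4 mice, with all counts and after thinning to 99000 counts per cell; bars give exact 95% intervals. Fzd3 goes from 64% to 19.2% of cells in Lgr6 mouse 2, whereas Lrp6 stays between 23.3% and 36% in the thinned cells of all mice.

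Most cells carried few kinds of Frizzled. Of the kept cells, 30 had counts for none of the 8 genes, 63 for 1, 55 for 2, 26 for 3, 7 for 4 and 1 for 5. Over all mice the median count of those cells was 355018 with none, 390105 with 1 and 676225 with 2. Within single mice this order did not always hold, as the medians were 302849, 303675 and 216448 in Lgr5 mouse 1 and were lower at each step in Lgr6 mouse 2. No order between lines was read from the numbers. Cells without any Frizzled count numbered 3, 7, 10 and 10 in the 4 mice.

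**Figure D3:**
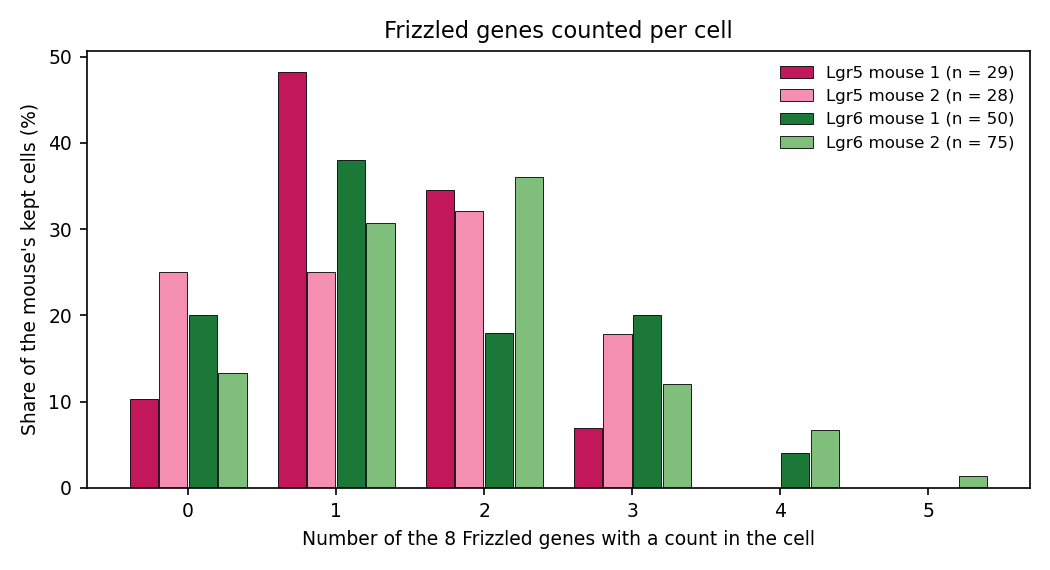
Share of each mouse's kept cells (vertical axis, percent) with counts for 0 to 5 of the 8 Frizzled genes; each bar is 1 mouse. Over all mice 63 cells had counts for 1 Frizzled gene and 55 for 2.

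A Frizzled and an Lrp were counted together in 65 cells (35.7%, 28.8 to 43.1%). A Frizzled alone was counted in 87, an Lrp alone in 10 and neither in 20. If the shares were independent within each mouse, 62.8 cells would hold both, so the 65 cells lay close to that product. By mouse both were counted in 14, 8, 15 and 28 cells (48.3% and 28.6% in the Lgr5 line, and 37.3% in Lgr6 mouse 2). Lrp5 and Lrp6 were counted together in 10 cells, against a product of 8.72.

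Pairs of members lay on both sides of their products. Fzd3 and Lrp6 shared 34 cells against a product of 34.6, Fzd3 and Fzd6 29 against 27.3, and Fzd1 and Lrp6 8 against 8.82. Fzd1 and Fzd7 shared 9 against 5.96, and Fzd1 and Lrp5 1 against 3.81. Fzd5 and Lrp6 shared 17 against 12.8, Fzd7 and Lrp6 15 against 11.3, Fzd5 and Fzd6 14 against 10.1, and Fzd2 and Fzd6 1 against 4.55. These are descriptions of cells that share a mouse and differ in depth, with no test.

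The comparison of lines asks whether cells marked by Lgr5 and by Lgr6 carry different receptors. Counts were summed over the kept cells of each mouse, which weights deep cells more than a mean TPM does, and 9 of the 10 members passed the filter on low counts, Fzd4 being left out. Fzd1 had 6.68 and 15.1 CPM in the Lgr5 line against 43.3 and 41.5 CPM in the Lgr6 line, with no overlap. Without the top cell of each mouse it had 1.76, 6.48, 32.1 and 29.5 CPM, still with no overlap. Fzd3 had 36.7 and 40.6 CPM in the Lgr5 mice against 9.04 and 7.61 CPM in the Lgr6 mice. Here a single cell held 88.8% of the counts of Lgr5 mouse 2 and another 75.1% of those of Lgr6 mouse 1, and without the top cell of each mouse the values were 22.8, 4.75, 2.28 and 5.50 CPM, which overlap. Fzd8 had 0, 0.0758, 5.37 and 2.76 CPM, and without the top cells of the Lgr6 mice 0.245 and 1.11 CPM remained there.

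Fzd2, with 1.01, 0.0758, 7.93 and 5.66 CPM, and Fzd7, with 0.304, 3.49, 10.6 and 11.2 CPM, were also higher in both Lgr6 mice. Lrp5 had 11.95, 11.2, 4.29 and 38.03 CPM and Lrp6 had 22.8, 48.8, 44.5 and 33.02 CPM. Neither co-receptor separated the lines.

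With edgeR's quasi-likelihood test and Benjamini-Hochberg adjustment, 0 of the 9 members tested passed an adjusted p of 0.05, where 0 of 14086 genes did (0.0%). At an unadjusted p under 0.05 there was 1 member, Fzd8, among 1312 genes (9.31%). DESeq2 called 564 genes (4.0%) and limma on mean log2 values 634 (4.5%), with no member among them. The log2 fold change, Lgr5 line over Lgr6 line, was -2.02 (SE 0.968) for Fzd1, with an adjusted p of 0.609 by edgeR (quasi-likelihood test, Benjamini-Hochberg). By the same edgeR test and adjustment it was 2.14 (SE 0.969) for Fzd3, with an adjusted p of 0.582. For Fzd8 the fitted value of -6.59 (SE 2.21, unadjusted p = 0.0213 from edgeR, adjusted p = 0.393) rests on 0 and 1 counts in the Lgr5 mice, depends on the prior count and is no bound. The other 6 lay between -3.77 for Fzd2 and -0.18 for Lrp6. The median over the 9 was -1.81, against -0.05 over all genes. Without Lgr6 mouse 2 the sign for Lrp5 turned, from -0.95 to 1.33, and without Lgr5 mouse 1 that for Lrp6 turned, from -0.18 to 0.29, as it did without Lgr6 mouse 1, to 0.07. Without Lgr6 mouse 1 edgeR called 34 genes and without Lgr6 mouse 2 it called 7, none of them a member.

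Other cell types moved with this comparison. Smooth muscle markers, all 8 with counts, summed to 5365 and 1283 CPM in the Lgr5 mice, led by Des and by Acta2, and to 14277 and 13322 CPM in the Lgr6 mice, led by Acta2. Alveolar fibroblast markers summed to 226, 161.3, 307 and 483 CPM, led by Npnt, with Wnt2 at 0 in Lgr5 mouse 1 and Cd34 at 0 in Lgr5 mouse 2. Pericyte markers summed to 434, 391, 719 and 657 CPM, led by Kcnj8 in 3 mice and by Pdgfrb in Lgr5 mouse 2, with Notch3 at 0 in the Lgr6 mice. The part of these cell types, and of the epithelial and erythroid counts given above, in the receptor levels was not tested. edgeR called 0 genes of each of the 8 marker lists between lines. By limma on mean log2 values all 8 smooth muscle genes and the pericyte gene Mcam were lower in the Lgr5 line, and 5 of 5 erythroid and 4 of 8 epithelial genes were higher. DESeq2 called 7 marker genes, with Acta2 and Rgs5 lower and Scgb1a1, Coro1a, Hba-a2, Hbb-b2 and Hbb-bh1 higher in the Lgr5 line, 1 or more in 5 of the 8 lists. Without the epithelial-rich cells the values for Fzd1 and Fzd8 kept their sign, and Fzd7 went from -2.56 to -4.01 (unadjusted edgeR p = 0.0529). Fzd3 was then at 2.35 (unadjusted edgeR p = 0.0444), beside Fzd8 under 0.05.

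Acta2 divided the Lgr6 line. Cells with a log2 TPM of at least 11 for Acta2, that is 2048 TPM, were called Acta2-high. They numbered 27 of 50 (54%) and 38 of 75 (50.7%) in the Lgr6 mice and 1 of 29 and 0 of 28 in the Lgr5 mice, so the classes were compared within the Lgr6 line. The highest value below the threshold was 10.97 and the lowest above it 11.03, and 9 Lgr6 cells, 3 and 6 in the mice, lay within 0.5 of it. The 7 smooth muscle markers other than Acta2, which defined the classes, summed to 15099 and 14847 CPM in the high cells and to 762 and 1203 CPM in the lower cells. Alveolar fibroblast markers summed to 166.3 and 62.9 CPM in the high cells and to 528 and 923 CPM in the lower cells.

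Fzd1 led the order in both classes, with 25.2 ± 0.225 TPM in Acta2-high cells and 31.6 ± 9.18 in lower cells (SD, n = 2 mice), and in each class both mice lay above those of the next gene. In high cells Lrp5, Lrp6 and Fzd2 followed with 11.5 ± 13.1, 10.3 ± 5.59 and 10.1 ± 8.46, then Fzd7 with 6.54 ± 0.0986, Fzd3 with 4.47 ± 2.39 and Fzd5 with 3.61 ± 2.94. Fzd6 and Fzd8 had 1.24 ± 0.426 and 1.17 ± 1.65, and Fzd4 was at 0. The step from Fzd7 to Fzd3 was the other separation between neighbours. In lower cells Fzd8 came after Fzd1 with 13.2 ± 8.89, a rank that rested on 1 cell in each mouse, then Lrp5 with 7.18 ± 3.35, Lrp6 with 6.78 ± 1.87 and Fzd7 with 6.27 ± 4.77. Fzd4, Fzd6, Fzd2, Fzd5 and Fzd3 lay between 3.34 and 0.439, and no neighbours after Fzd1 were separated. The Fzd8 cells had 425 and 236 TPM, with Acta2 at 10.65 and 10.90, just under the threshold, and without them the mean TPM of Fzd8 was 1.04 and 0.537. In lower cells of mouse 1 the lead of Fzd1 also rested on 1 cell, without which its mean TPM was 5.04, under the 7.62 of Lrp6 without its own top cell.

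Fzd3 had 6.16 TPM in high and 0.580 in lower cells of Lgr6 mouse 1, and 2.78 against 0.298 in mouse 2. In mouse 1 a single high cell held 196 of the 233 Fzd3 counts of that class. Fzd2 had 16.1 against 0.367 and 4.12 against 2.08, and Fzd5 had 1.53 against 0.763 and 5.69 against 0.493. On this scale these 3 were higher in Acta2-high cells of both mice, but for Fzd5 in mouse 1 the summed counts gave 2.66 CPM in high and 3.83 CPM in lower cells. In mouse 2 the orders of Fzd2 and Fzd5 rested on few cells. Single high cells there held 299 and 197 of the 531 Fzd2 counts of that class, and 581 and 495 of the 1235 Fzd5 counts. After thinning Fzd2 was in 8.11% of high and 8.33% of lower cells of mouse 2. The mean TPM of Fzd8 was 0 in high against 19.5 in lower cells of mouse 1 and 2.34 against 6.91 in mouse 2. These lower-class values came mostly from the 2 cells just under the Acta2 threshold given above, so no order of the classes was read for Fzd8. Its summed counts in mouse 2 gave 3.26 CPM in high and 2.23 CPM in lower cells. Fzd1 had 25.4 in high and 25.1 in lower cells of mouse 1, and 25.04 against 38.1 in mouse 2. In lower cells of mouse 1 a single cell held 94.6% of the Fzd1 counts, and without it the mean TPM was 5.04. The summed counts of Fzd1 in mouse 1 gave 50.9 CPM in high and 31.3 CPM in lower cells. No order of the classes was therefore read for Fzd1.

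For Lrp5 and Lrp6 the order of the classes differed between the mice. Lrp5 had 2.26 TPM in high and 9.55 in lower cells of mouse 1, but 20.8 and 4.81 in mouse 2. Lrp6 had 6.32 and 8.10 in mouse 1, and 14.2 and 5.45 in mouse 2. Lrp6 was counted in 3 of 27 high cells (11.1%, 2.35 to 29.2%) and 12 of 23 lower cells (52.2%, 30.6 to 73.2%) of mouse 1, though the high cells there were deeper, with a median of 418813 counts against 165685. After thinning these shares were 9.52% and 62.5%. In mouse 2 the shares were 31.6% and 32.4%, and after thinning 21.6% and 25%, so the gap in shares was a feature of 1 mouse.

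Of the 9 members tested between the classes, 0 passed edgeR's quasi-likelihood test with the mouse as a block and Benjamini-Hochberg adjustment at 0.05, where 4 of 13529 genes did (0.0296%). Every member had an adjusted p of 1 by that edgeR test with Benjamini-Hochberg adjustment. None had an unadjusted p under 0.05, against 1039 genes (7.68%). DESeq2 called 944 genes (6.98%) and limma 690 (5.1%), again with no member. The log2 fold change, high over lower, was 1.98 (SE 1.79) for Fzd3, 2.12 (SE 1.93) for Fzd2, 0.21 (SE 0.960) for Fzd1 and -4.14 (SE 5.75) for Fzd8. Without Lgr6 mouse 1 the value was -0.15 for Fzd1 and 0.49 for Fzd8, both of the other sign, and at an Acta2 threshold of 10 that for Fzd8 was 1.65. Without Lgr6 mouse 2 the sign turned for Fzd5, from 1.35 to -0.63, for Lrp5, from 0.90 to -1.07, and for Lrp6, from 0.67 to -0.13. The median over the 9 members was 0.90, against 0.02 over all genes, but by limma on mean log2 values it was -0.03 against 0.02.

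The 4 genes called were Acta2, with a log2 fold change of 4.19, which defined the classes, and the surfactant genes Sftpc, Sftpa1 and Sftpd, with -14.61, -13.97 and -14.35. The surfactant genes were named after their values were seen. All 4 calls were lost without the epithelial-rich cells, 3 and 5 in the Lgr6 mice and all Acta2-lower, and edgeR then called 0 genes, with 800 at an unadjusted p under 0.05. Acta2 itself kept a log2 fold change of 4.05, with an adjusted p of 0.304 by edgeR (quasi-likelihood test, Benjamini-Hochberg). They were also lost without the mouse as a block. Epithelial markers summed to 7.42 and 2.73 CPM in the high cells and to 3231 and 21941 CPM in the lower cells. Endothelial markers had no counts in the high cells and summed to 195 and 36.9 CPM in the lower cells, and both genes tested, Esam and Kdr, were called by DESeq2. DESeq2 and limma each called all 8 smooth muscle genes as higher in the high cells, and as lower there 7 and 5 of 8 epithelial and 4 and 5 of 8 alveolar fibroblast genes. Without those cells Fzd6 went from 0.11 to 1.51, and without Lgr6 mouse 1 it was -1.46.

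Between lines in Acta2-lower cells alone, a comparison without the unequal shares of Acta2-high cells, Fzd3 had 34.7 and 40.6 CPM in the Lgr5 line against 2.49 and 3.48 CPM in the Lgr6 line. A single cell held 88.8% of the counts of Lgr5 mouse 2. Without the top lower cell of each mouse the values were 19.5, 4.75, 2.37 and 1.43 CPM. The log2 fold change for Fzd3 was 3.47 (SE 1.53, unadjusted edgeR p = 0.0473), with an adjusted p of 0.651 by edgeR (quasi-likelihood test, Benjamini-Hochberg) and of 0.0600 by DESeq2. Without the epithelial-rich cells it was 4.18 (unadjusted edgeR p = 0.0265). Fzd3 was not among the members at an unadjusted p under 0.05 by limma. Nor was it by edgeR with no filter, a replicate block or an Acta2 threshold of 10 or 12.

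Fzd8 had 0, 0.0758, 13.8 and 2.23 CPM in these cells. Its fitted log2 fold change of -7.63 (SE 2.73, unadjusted edgeR p = 0.0196) had an adjusted p of 0.457 by edgeR (quasi-likelihood test, Benjamini-Hochberg), whereas DESeq2 gave an adjusted p of 0.0476. In Lgr6 mouse 1, 95.5% of its counts came from 1 cell with Acta2 at 10.65, and in Lgr6 mouse 2, 85.3% came from 1 epithelial-rich cell. Without the epithelial-rich cells Fzd8 no longer passed the filter, 7 members were tested, and Fzd3 alone had an unadjusted edgeR p under 0.05. Fzd1 had a log2 fold change of -1.90 (SE 1.33), but in Lgr6 mouse 1 a single cell held 94.6% of its counts, and without the top lower cell of each mouse it had 1.91, 6.48, 1.76 and 25.6 CPM, which overlap. Fzd2 had 1.10, 0.0758, 1.60 and 2.87 CPM and Fzd7 0.330, 3.49, 4.37 and 7.68 CPM, higher in both Lgr6 mice. Without the top lower cell of each mouse Fzd2 had 0.673, 0, 0.140 and 1.53 CPM. Fzd7 then had 0.116, 2.19, 1.81 and 5.31 CPM, and for both genes the lines overlapped. In all, edgeR called 0 of 9 members and 0 of 12958 genes (0.0%), with 2 members, Fzd3 and Fzd8, among the 976 genes at an unadjusted p under 0.05 (7.53%). DESeq2 called 404 genes (3.12%), with Fzd8 among them, and limma 258 (1.99%) without a member. The median over the members was -1.46, against -0.00 over all genes. Leaving out Lgr5 mouse 1, Lgr5 mouse 2, Lgr6 mouse 1 or Lgr6 mouse 2 gave 25, 6, 27 and 74 genes called by edgeR, none of them a member. In these cells smooth muscle markers summed to 996 and 1283 CPM in the Lgr5 line and to 1110 and 1749 CPM in the Lgr6 line, and epithelial markers to 52159.8 and 28398 CPM against 3231 and 21941 CPM. Alveolar fibroblast markers summed to 244 and 161.3 CPM against 528 and 923 CPM, and erythroid markers to 775 and 893 CPM against 0.624 and 2.09 CPM. Mesenchyme markers summed to 3023 and 4039 CPM against 10003 and 3936 CPM. An unadjusted edgeR p under 0.05 was found for 3 of 8 alveolar fibroblast, 4 of 5 erythroid, 3 of 4 mesenchyme and 2 of 8 epithelial genes. Their part in the receptor levels was not tested. edgeR called 0 genes of each marker list, whereas DESeq2 called 4 of 5 erythroid genes, Scgb1a1 and Coro1a, and limma called Hbb-b2, Hbb-bh1 and Scgb1a1, all higher in the Lgr5 line.

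Within a line, cells were also divided by the transcript that names it. In the Lgr6 mice, Lgr6 reached 1 TPM in 12 of 50 and 24 of 75 cells. Fzd7 was counted in 6 of those 12 (50%) against 6 of the other 38 (15.8%), and in 8 of those 24 (33.3%) against 8 of the other 51 (15.7%). Fzd2 was counted in 4 (33.3%) against 4 (10.5%), and in 4 (16.7%) against 3 (5.88%). Fzd3, with 66.7% against 42.1% and 66.7% against 62.7%, and Fzd5, with 25% against 18.4% and 33.3% against 19.6%, had the same order. Lrp6, with 16.7% against 34.2% and 25% against 35.3%, and Lrp5, with 8.33% against 10.5% and 8.33% against 17.6%, had the reverse. The cells with Lgr6 were deeper, with a median of 424502 counts against 182141 in mouse 1. The exact intervals overlap, and no test was made. Fzd1 differed between the mice, with a mean TPM of 92.3 in Lgr6-positive and 4.07 in negative cells of mouse 1, and 21.3 and 36.2 in mouse 2.

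In the Lgr5 mice, Lgr5 reached 1 TPM in 22 of 29 and 20 of 28 cells. Fzd3 was counted in 15 of the 22 and 5 of the other 7, and in 11 of the 20 and 5 of the other 8. Lrp6 was counted in 8 of 22 against 2 of 7, and in 8 of 20 against 1 of 8. The groups without Lgr5 were small, and no test was made over cells.

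Removed wells of the Lgr5 mice were also set against the kept cells. Wells that the authors removed, with at least 2000 genes, a Pecam1 TPM of at least 1 and a Ptprc TPM under 1, numbered 8 and 18 in the Lgr5 mice and 0 in both Lgr6 mice. Pecam1 and Ptprc encode CD31 and CD45. All 8 endothelial markers had counts in these Pecam1 wells and summed to 5019 and 3036 CPM, led by Cldn5, but epithelial markers also summed to 45454 and 9843 CPM, mesenchyme markers to 1181 and 2569 CPM and immune markers to 18.6 and 193 CPM. They were therefore not a pure class. tdTomato was above 32 TPM in 5 of the 8 and 16 of the 18 wells, with medians of 313 and 1145 TPM, under those of the kept cells. The kept cells had been chosen for over 32 TPM of tdTomato and these wells had not, so no difference is read from the medians.

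Fzd4 had a mean TPM of 50.2 and 3.6 in the Pecam1 wells, in 5 of 8 and 3 of 18 wells, against 0 in the kept cells of both mice. Against 3 counts, the limit set for a sum at 0 in each mouse, Fzd4 was at least 200.4-fold higher in mouse 1 and at least 26.4-fold higher in mouse 2. That limit covers counting error only, and the 1 kept cell with Fzd4, from the Lgr6 line, had 11 counts, above it. Fzd1 was at 0 in both sets of Pecam1 wells, against 66 and 199 counts in the kept cells, at least 5.63-fold and 22.6-fold lower. A single cell held 74.2% and 61.3% of those counts, and without it the bounds were 1.48-fold and 9.73-fold. By shares of cells the sets cannot be told apart for Fzd1, with 0 of 8 wells against 2 of 29 kept cells and 0 of 18 (up to 18.5%) against 4 of 28 (4.03 to 32.7%). For Fzd4 in mouse 2 the intervals also overlap, with 3.58 to 41.4% of wells against up to 12.3% of kept cells. Fzd6 had a mean TPM of 6.05 and 7.18 in the Pecam1 wells against 0.609 and 0.438 in the kept cells. Lrp6 had 4.83 and 4.07, under the kept cells in both mice, but its summed counts gave 43.9 CPM against 22.8 CPM in mouse 1 and 17.5 CPM against 48.8 CPM in mouse 2. Lrp5 had a mean TPM of 24.1 and 4.53, above the kept cells in mouse 1 and under them in mouse 2. Its summed counts lay above those of the kept cells in both mice. They gave 48.2 CPM against 11.95 CPM in mouse 1 and 17.1 CPM against 11.2 CPM in mouse 2.

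Of 8 members tested, edgeR (quasi-likelihood test, Benjamini-Hochberg) called 0, where it called 0 of 13292 genes (0.0%), and Fzd2 and Fzd8 did not pass the filter. Fzd1 and Fzd4 were among 915 genes at an unadjusted p under 0.05 (6.88%), with p = 0.0301 and p = 0.00995 from edgeR. DESeq2 called 658 genes (4.95%), among them Fzd4 with an adjusted p of 0.000132 and Fzd1 with 0.0452. limma called 943 (7.09%), among them Fzd4 with an adjusted p of 0.00362. The fitted log2 fold change was 3.45 (SE 1.65) for Fzd6, with an adjusted p of 0.767 by edgeR (quasi-likelihood test, Benjamini-Hochberg). The median over the 8 was 1.31, the same with Fzd1 and Fzd4 at their bounds, against 0.04 over all genes. edgeR called 0 genes of each marker list, and 6 of the 7 endothelial genes other than Pecam1, which chose the wells, had an unadjusted p under 0.05. Of the 8 endothelial genes, Pecam1 included, 7 were called as higher by DESeq2 and 8 by limma. Of 7 smooth muscle genes DESeq2 called 6 as lower and limma 0.

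Taking in the wells that also held Ptprc, an alternative added after the data were examined, raised the count of genes called to 206. The value for Fzd1 was then -0.04. The fitted -9.48 without those wells rests on 0 counts in both sets of Pecam1 wells, depends on the prior count and is no bound. The size of that move is therefore not read. Scaling by total counts without the trimmed mean of M-values moved the median of all genes from 0.04 to 0.29 in this comparison and from -0.00 to 0.18 between lines in Acta2-lower cells, and no member's sign turned. By limma on mean log2 values the medians over the members were -0.19 between lines, -0.09 between lines in lower cells and 0.50 in the Pecam1 wells, against 0.08, 0.09 and 0.49 over all genes.

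**Figure D4:**
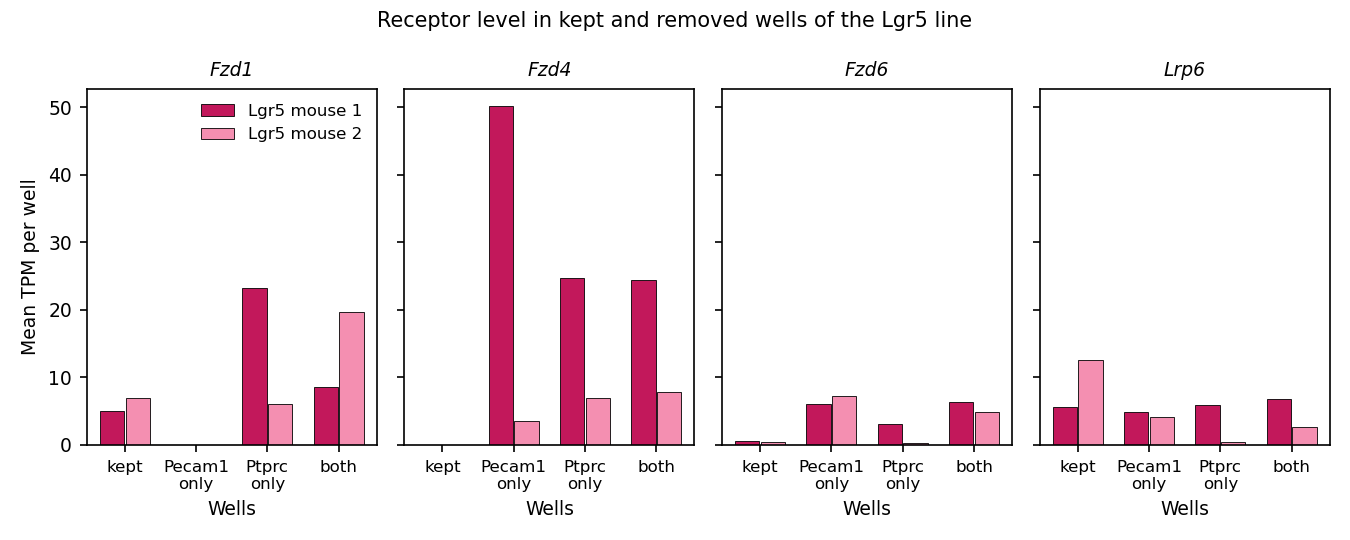
Mean TPM (vertical axis) of Fzd1, Fzd4, Fzd6 and Lrp6 in kept cells and in removed wells with Pecam1 alone, Ptprc alone or both, each bar 1 of the 2 Lgr5 mice. Fzd4 is at 0 in the kept cells of both mice and at 50.2 and 3.6 in the wells with Pecam1 alone.

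The rest of the pathway was given by lists of 39 genes, 38 of them in the files, with Mesd absent under that symbol. edgeR called 0 of these in each of the 4 comparisons. At an unadjusted edgeR p under 0.05 there were 4 of 35, 2 of 35, 2 of 32 and 3 of 30 tested. Over all genes the shares under that p were 9.31%, 7.68%, 7.53% and 6.88%. Between lines 35 were tested, and their median log2 fold change was -0.58, Lgr5 over Lgr6, against -0.05 over all genes. Between Acta2 classes the median of 35 was -0.12 against 0.02, between lines in lower cells that of 32 was -0.16 against -0.00, and in the Pecam1 wells that of 30 was 0.32 against 0.04.

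By list, the median between lines was -0.75 for the alternative Wnt receptors Ror1, Ror2, Ryk and Ptk7, -0.42 for genes of receptor turnover and maturation, -0.62 for cytoplasmic components, -0.42 for nuclear factors and -2.15 for planar polarity genes. By limma on mean log2 values these were -0.24, -0.03, 0.11, 0.06 and -0.01, and -0.00 over all lists. The most abundant of each list were Ptk7 with a mean TPM over the 4 mice of 22.3, Mesdc2, the Lrp chaperone, with 59.8, the kinase gene Csnk1a1 with 215, the transcription factor gene Tcf7l2 with 69.6 and Prickle2 with 21.3. Of these, Csnk1a1, Tcf7l2 and Mesdc2 lay above every receptor gene in each of the 4 mice. Fzd9 and Fzd10 were not tested, and Fzd10, the higher of them, had 0.487.

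DESeq2 called 1 of 35, 2 of 35, 2 of 32 and 2 of 30 tested genes of these lists in the 4 comparisons, where it called 4.0%, 6.98%, 3.12% and 4.95% of all genes. They were 4 genes, each with counts in few kept cells. Lypd6 was counted in 7, Axin1 in 12, Vangl2 in 12 and Prickle1 in 19 kept cells over all mice. Lypd6, an enhancer of Lrp6 signalling, was lower in the Lgr5 line and higher in Acta2-high cells, with a mean TPM of 0 in both Lgr5 mice, against 5.85 and 13.01 in the Lgr6 line. Prickle1, a planar polarity gene, was higher in Acta2-high cells and in the Pecam1 wells, with 0, 4.87, 7.70 and 25.03 in the kept cells of the 4 mice. Axin1, the scaffold of β-catenin breakdown, was higher in the Lgr5 line among Acta2-lower cells and lower in the Pecam1 wells, with 20.4, 14.6, 1.304 and 1.13 in the lower cells of the 4 mice. Vangl2, another polarity gene, was lower in the Lgr5 line among lower cells, with 0, 0, 3.64 and 35.7 there. In the Pecam1 wells limma called 2 of 30 tested genes of these lists, where it called 7.09% of all genes. They were Prickle1 and Tspan12, a Frizzled partner in Norrin signalling with 17.5 and 7.70 TPM in the kept cells of the Lgr5 mice. None of these was called by edgeR.

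Fzd3 and Lrp6 were counted in at least 25% of kept cells, the share set for comparing a member with other genes by Spearman's rho of log2 TPM within each mouse, averaged over 4 mice. On that scale Fzd3 had a value above 0 in 40 cells, under 25%, since 68 of the cells with counts were listed at 0, so no genes are named for it. For Lrp6, with 51 cells above 0, the largest of 5629 values were 0.36 for Tbc1d30, 0.34 for Vps33b and 0.32 for AI197445. Tbc1d30 and AI197445 themselves had values above 0 in 45 and 30 cells, and among the 5061 genes with at least 1 TPM in 25% of kept cells, a choice made after the data were examined, the largest were 0.34 for Vps33b, 0.31 for Aqp3 and 0.30 for Secisbp2l. Vps33b was thus named both ways, with 0.43, 0.43, 0.25 and 0.25 in the single mice. Cells of a mouse share its library preparation and differ in depth, and these values are a description only.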

How the data were processed

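Single cells were sorted into wells and amplified with a modified Smart-seq2 protocol. Per the labels, reads were demultiplexed with bcl2fastq 2.17.1.14 and quantified with kallisto 0.43.0 on the mm10 transcriptome, and the authors summed transcript values to genes. The authors deposited whole-number counts for all wells. For every well, and again for the kept cells alone, the authors supplied log2 TPM, having removed wells with under 2000 or unusually many genes, low housekeeping expression, little of the Tomato reporter, Ptprc or Pecam1. The members and lists were chosen with earlier results of these data known.

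Sums of counts for each mouse, or each class within a mouse, were tested over all genes with edgeR 4.0.16 (filterByExpr, trimmed mean of M-values, quasi-likelihood test, Benjamini-Hochberg adjustment) in R 4.3.3, with the mouse as a block where both classes came from the same mice. DESeq2 1.42.0 and limma 3.58.1 on mean log2 TPM per mouse were alternatives. The script was tested on simulated counts. The replicates were different mice, 2 in each line. Members were all named, and pathway genes were named where a tool called them or they led their list. Marker lists covered smooth muscle, alveolar fibroblast, pericyte, epithelial, endothelial, immune, erythroid and general mesenchyme genes. Gene positions and 31-base words came from GENCODE vM21 on GRCm38. Thinning drew counts without replacement with seed 1. Other steps used scipy 1.17.1, pandas 2.3.3 and numpy 2.4.6 under Python 3.11.15, and figures matplotlib 3.10.9.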

Additional observations from a re-analysis of the deposited data

Results flagged for a closer look

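Fzd4, which was at 0 in the kept cells of both Lgr5 mice, had counts in wells that the authors removed and that were used above only in 1 added alternative and a figure, those with both Pecam1 and Ptprc at a TPM of at least 1. Its mean TPM there was 24.4 in Lgr5 mouse 1 and 7.79 in Lgr5 mouse 2. It was counted in 27 of 35 wells (77.1%, exact interval 59.9 to 89.6%) and in 9 of 23 wells (39.1%, 19.7 to 61.5%), against 0 of 29 and 0 of 28 kept cells. Larger shares were general there. All 10 members were counted in a larger share of these wells than of kept cells in both mice, as were 95.3% and 89.3% of all genes with a count in the mouse, and the median number of genes was 11248 and 7490 per well against 4277 and 3640 per kept cell. Intervals, which cover counting error over the wells of 1 mouse only, were apart for 8 members in mouse 1 and for Fzd4 alone in mouse 2, against 41.4% and 11.99% of all those genes. The median count was 294721 and 103491 in those wells and 263129 and 272729 in the kept cells. In removed wells with Ptprc alone, 7 and 9, Fzd4 had a mean TPM of 24.7 and 6.97. What cells those wells held was not tested.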

How the results depend on the processing

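No member was called by edgeR under any alternative. Of 392 alternative log2 fold changes of members, 359 kept their direction and were not called. A further 4 were called and 29 turned, with values rounded to 2 decimals. Values without a test or without an adjusted p were counted here as not called. Counts of genes called, with 41 alternatives, moved by over 1.5 times in 24. Where no cause is given it was not tested.

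Calls are given as percent of the genes tested. Between lines (0 called), DESeq2 gave 4.0%, no filter 2.07% of 19715 genes, limma 4.5% and leaving out a mouse 0 to 0.217%. Between Acta2 classes (4 called, 0.0296%), DESeq2 gave 6.98%, limma 5.1%, no mouse block 0, thresholds of 10 and 12 gave 0.082% and 0, leaving out the ribosomal RNA gene Rn45s gave 0.052% and leaving out the epithelial-rich cells 0. Between lines in Acta2-lower cells (0 called), DESeq2 gave 3.12%, no filter 0.818% of 19197 genes, limma 1.99% and leaving out a mouse 0.0409 to 0.501%. For the Pecam1 wells (0 called), DESeq2 gave 4.95%, no filter 0.152% of 20385 genes, limma 7.09%, no mouse block 0.0376% and wells with or without Ptprc 1.3%. The last 3 kinds of cell set (Rn45s, epithelial-rich, Ptprc) were chosen after seeing the data.

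Signs turned with limma for Lrp5 (0.15) and Lrp6 (0.14) between lines, for Fzd1 (-0.12), Fzd7 (-0.06), Fzd6 (-0.03) and Lrp6 (-0.41) between classes, for Lrp6 (-0.07) in lower cells, and for Fzd3 (0.12) and Lrp6 (0.03) in the Pecam1 wells. Without the block Fzd6 gave -0.22. At an Acta2 threshold of 10 Fzd8 gave 1.65, Fzd6 -0.44 and, between lines in lower cells, Lrp6 -0.08. At 12 Fzd6 gave -0.35 and Lrp5 -1.61.

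Leaving out a mouse moved Lrp5 from -1.76 to 1.33 and Lrp6 from -0.80 to 0.29 between lines. Between classes it moved Fzd1 from -0.15 to 0.57, Fzd5 from -0.63 to 3.30, Fzd8 from -6.73 to 0.49, Fzd6 from -1.46 to 1.58, Lrp5 from -1.07 to 2.86 and Lrp6 from -0.13 to 1.46. In lower cells it moved Fzd6 from -2.22 to 0.40 and Lrp6 from -0.53 to 1.01, and in the Pecam1 wells Fzd7 from -0.48 to 4.53 and Lrp6 from -1.59 to 0.60. A lone mouse was assumed to vary like the others. Between classes and for the Pecam1 wells, leaving out a mouse left no residual degrees of freedom and gave values without a test.

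Mouse numbers are shared between lines but nothing ties mice with the same number. Their deviations correlated by 0.0385 over 14086 genes and 0.044 over 12958 genes, and a replicate block gave 0 genes in both comparisons of lines.

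Of 120 shares of cells, 16 left their interval, 11 of them on thinning and 5 at a minimum of 1 TPM. Of 27 alternative log2 ratios of mean TPM between lines, 14 moved, 8 of 9 with the mean of log2 TPM, 4 of 9 with the median over cells with the gene and 2 of 9 without the epithelial-rich cells. A ratio was counted as moved if it changed by at least the spread between mice. For Fzd8, at 0 in Lgr5 mouse 1, that spread could not be computed, and each of its alternatives was counted as moved whatever its size. Depth limits what an absent count shows for Fzd4 and Fzd8. Without the epithelial-rich cells 33 of 35 fold changes could be fitted, with every sign kept but that of Lrp6 between lines in lower cells, which went from 0.05 to -0.00.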
